A study of Mus musculus with 20 samples.

Results

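Laminins and nidogens are secreted proteins of the basement membrane. The 9 genes described here were chosen by name: the laminin α chains Lama1, Lama2, Lama4 and Lama5, the β chains Lamb1 and Lamb2, the γ chain Lamc1, and the nidogens Nid1 and Nid2. They are 9 of the 51826 genes in the count table, and all 9 were among the 20407 genes with enough counts to be tested. The study cultured primary myofibroblasts from the kidneys of C57BL/6J mice and measured poly-A RNA by bulk sequencing in 20 libraries. There were 4 groups of 5 libraries: untreated wild-type cells (WT), WT cells given TGFβ1, untreated WWP2-/- cells, and WWP2-/- cells given TGFβ1. The comparisons ask how loss of WWP2, a HECT-type E3 ubiquitin ligase, and stimulation with TGFβ1, the classical profibrotic cytokine, bear on these matrix genes. The labels give the knock-out only as KO, and they state neither the sex nor the age of the mice, nor whether the 5 cultures of a group came from separate animals, so the p-values measure the spread between these cultures. The dose and duration of TGFβ1 are also not in the labels. The cells were outgrowths of minced kidney used at the second passage, so any cell that adheres and grows could be present.

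A laminin is a cross-shaped heterotrimer of an α, a β and a γ chain, and its chain composition gives the isoform its name and its receptors. Laminins polymerise at the cell surface, where integrins and dystroglycan bind the α chain, and nidogens bridge the laminin network, through the γ1 chain, to type IV collagen. In the kidney the LAMB2-containing isoform with LAMA5 is the laminin of the mature glomerular basement membrane, whereas interstitial and vascular cells also make chains such as LAMA2 and LAMA4.

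The promoters of both β chains are shown because, in cells given TGFβ1, Lamb2 was called lower and Lamb1 higher in WWP2-/- cells, the call of Lamb1 being lost under several alternatives. Each window runs from 250 bases before to 50 bases after the RefSeq transcription start (GRCm38.p6), written 5′ to 3′ on the strand of the gene. Capitals mark E-boxes (CANNTG), the motif of basic helix-loop-helix factors. Lamb1 lies at chr12:31265043-31265342 and Lamb2 at chr9:108479612-108479911, both on the plus strand.
Lamb1: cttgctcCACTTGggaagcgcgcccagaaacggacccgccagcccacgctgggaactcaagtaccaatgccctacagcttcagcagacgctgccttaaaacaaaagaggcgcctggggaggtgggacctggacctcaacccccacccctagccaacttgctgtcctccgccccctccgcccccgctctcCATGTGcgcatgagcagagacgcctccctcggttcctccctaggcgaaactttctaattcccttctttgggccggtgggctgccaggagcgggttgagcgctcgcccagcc
Lamb2: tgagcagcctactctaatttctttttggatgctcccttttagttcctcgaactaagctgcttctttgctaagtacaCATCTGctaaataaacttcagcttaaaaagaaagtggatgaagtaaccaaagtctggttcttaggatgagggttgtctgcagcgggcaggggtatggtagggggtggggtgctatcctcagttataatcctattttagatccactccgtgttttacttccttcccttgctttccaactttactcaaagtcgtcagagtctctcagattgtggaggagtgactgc
The Lamb1 window held 2 E-boxes and the Lamb2 window 1. On both strands, the Smad-binding letters CAGAC occurred 1 time in Lamb1 and 2 times in Lamb2, and the GC box GGGCGG 2 times in Lamb1 and 0 times in Lamb2. No match of these motifs overlapped another in either window. The G and C content was 63.7% for Lamb1 and 44.0% for Lamb2. Of 32851 promoter windows of the same length, 72.3% held an E-box, 49.6% CAGAC and 35.7% GGGCGG, so these letters are common. Entries of this kind were also found for Lama2, Lama5 and Nid1, that is for 5 of the 9 genes.

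The library totals ran from 47520759 to 73063697 counts. Levels are given as CPM, the counts scaled to library size with the trimmed mean of M-values (TMM). Wwp2 was at 49.99 to 59.8 CPM in the 10 WT libraries and at 17.0 to 22.7 CPM in the 10 WWP2-/- libraries, so the knock-out cultures still held transcript reads of the gene. Xist, a noncoding RNA that female cells make from their silenced X chromosome, stood above 1 CPM in 8 of 10 WT libraries and in 3 of 10 WWP2-/- libraries. The WT libraries without it were untreated replicate 4 and TGFβ1 replicate 3, and the WWP2-/- libraries with it were untreated replicates 1 and 3 and TGFβ1 replicate 1. Genotype and the presence of Xist therefore largely coincided. WWP2-/- untreated replicate 3 and WWP2-/- TGFβ1 replicate 1 also stood apart in Acta2, the smooth muscle actin of myofibroblasts, with 38.9 and 50.4 CPM against at least 1016 CPM elsewhere. Summed markers of pericytes and smooth muscle (8 genes) were at 67.7 and 79.2 CPM in these libraries and at least 1155 CPM in all others. Macrophage markers (10 genes) summed to between 72.0 and 4275 CPM and tubular markers (9 of 12 tested) to between 17.0 and 811 CPM, with the tubular transporter Slc34a1 at 0 throughout 3 of the groups. In bulk cultures, fewer cells of a type and less RNA per cell cannot be told apart.

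Levels of different genes were compared as CPM per kilobase of exon. Nid1 stood highest in all 4 groups, at 167 ± 64.5 CPM per kilobase in WT, 204 ± 62.8 in WT with TGFβ1, 241 ± 156 in WWP2-/- and 200 ± 187 in WWP2-/- with TGFβ1 (mean ± SD, n = 5). The β chains, Lamc1 and Lama5 followed. In WT the order was Lamb2 (79.0 ± 28.8), Lamb1 (58.9 ± 11.5), Lamc1 (44.4 ± 15.1) and Lama5 (29.6 ± 7.83 CPM per kilobase). Nid2 came next at 14.3 ± 10.03, then Lama2 at 5.29 ± 3.14, Lama4 at 3.70 ± 2.46 and Lama1 at 0.522 ± 0.178 CPM per kilobase. The ranges of every pair of neighbours in this order overlapped across the 5 WT libraries. In the WWP2-/- groups Lamb1 stood above Lamb2 in all 10 libraries with no overlap of their ranges, whereas Lamb2 stood above Lamb1 in 4 of 5 untreated WT libraries. With the longest transcript as the length in place of all exons, Lamb2 stood above Lamb1 in 2 of 5 untreated WT libraries, and Lamb1 had the higher mean, so the order of the β chains in WT depends on the length used. Lamc1 and Nid2 were also apart in both WWP2-/- groups. Lama1, the α chain of the embryonic laminin, had the lowest mean of the 9 in every group.

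**Figure D1:**
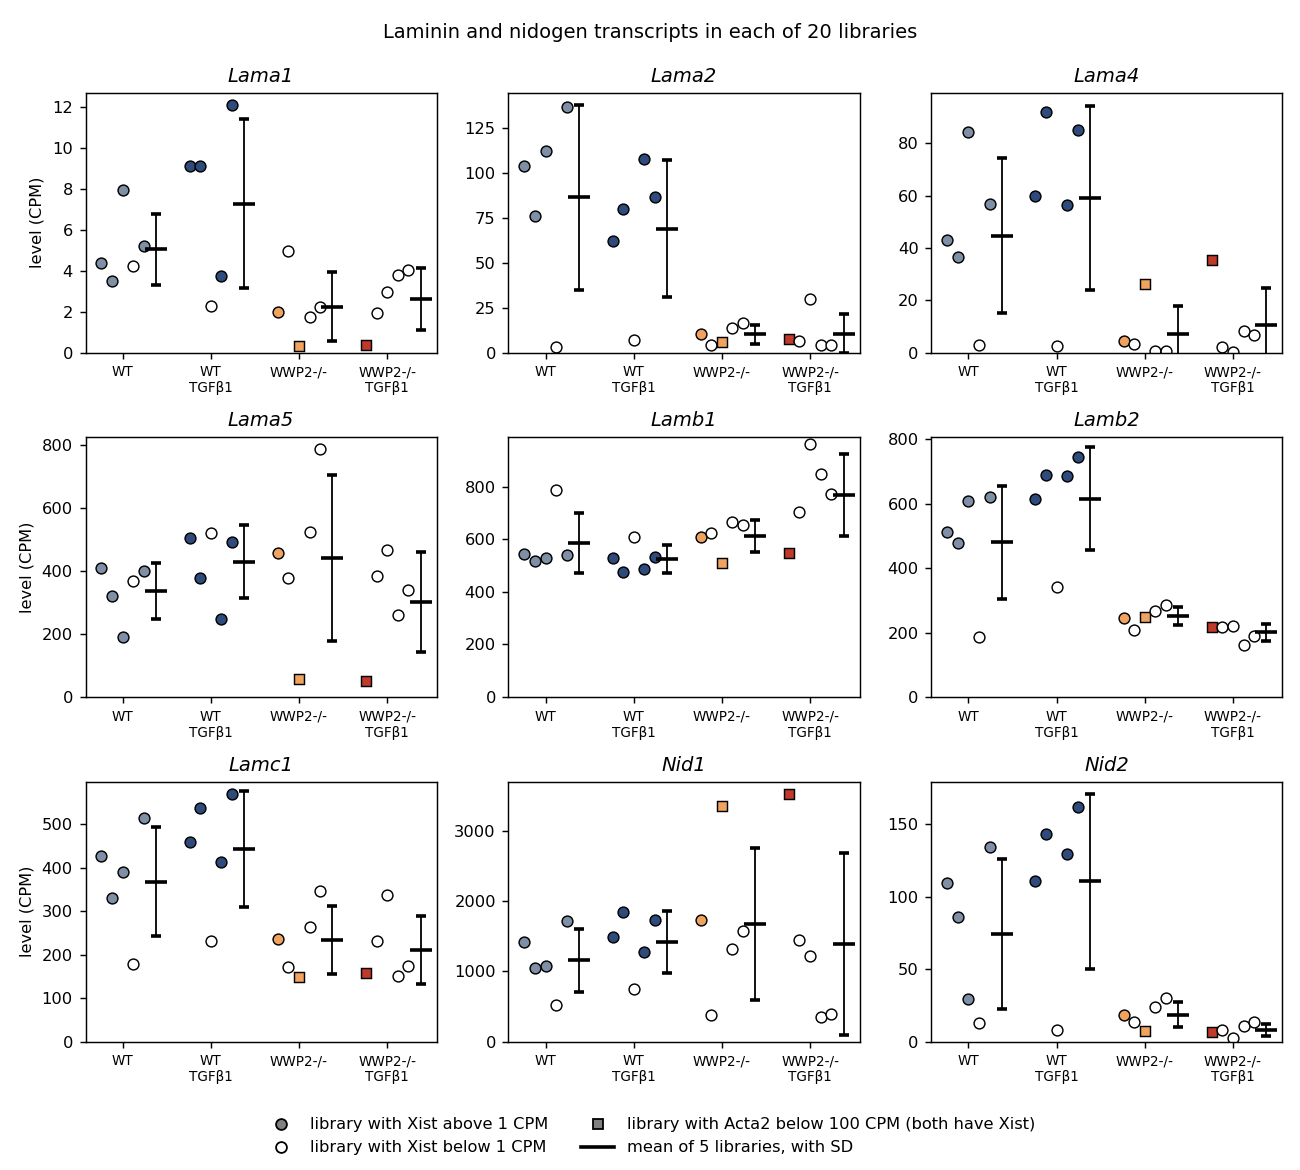
Level of each of the 9 transcripts in CPM (linear axis from 0) in each library, with the 4 groups on the horizontal axis. Filled circles are libraries with Xist above 1 CPM, open circles those below, squares the 2 libraries with Acta2 below 100 CPM, and the bar is the mean ± SD of 5 libraries, ending at the axis where it would pass below 0. Lamb2 in WWP2-/- cells with TGFβ1 spans 160 to 220 CPM, below every WT library with TGFβ1 (341 to 745 CPM), and the open WT circles lie near the WWP2-/- libraries for Lama2, Lama4 and Nid2.

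The comparison with the most calls was that of WWP2-/- with WT cells when both had TGFβ1. Of the 9 genes, 4 passed an adjusted p of 0.05 in edgeR's quasi-likelihood test, against 6.07% of all genes tested. Lamb2, Lamc1 and Nid2 were lower in WWP2-/- cells and Lamb1 was higher. The median log2 fold change of the 9 genes was -1.48, against 0.05 over all genes tested, and 8 of the 9 fitted values were negative.

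Lamb2 encodes the β2 chain, found at the glomerulus, the neuromuscular junction and the vessel wall. The gene lies at chr9:108479736-108490530 (GRCm38, plus strand). With TGFβ1, its level in WT replicates 1 to 5 was 616, 691, 341, 686 and 745 CPM. In WWP2-/- cells with TGFβ1 it was 219, 217, 220, 160 and 190 CPM. The groups did not overlap, and the WT library lacking Xist, at 341 CPM, stood above all 5 WWP2-/- libraries. Of all genes tested, 3.08% were lower in WWP2-/- cells without overlap in this comparison, and Lamb2 was the only member of the 9 among them. The fitted level was 3.06-fold lower (log2 fold change -1.61, SE 0.26, 95% interval -2.15 to -1.08, adjusted p = 0.00581 by edgeR). The exact two-sided permutation test gave p = 0.00794, the smallest that 5 against 5 libraries can give. Among libraries lacking Xist, 4 WWP2-/- libraries stood at 160 to 220 CPM and the WT library at 341 CPM. Among those with Xist, the WWP2-/- library stood at 219 CPM and 4 WT libraries at 616 to 745 CPM. With Xist as a yes or no term in the fit, the log2 fold change was -1.24 (adjusted p = 0.0284 by edgeR). In untreated cells the order was the opposite among libraries lacking Xist. There the WT library held 187 CPM, below the 209 to 287 CPM of 3 WWP2-/- libraries. Whether the difference in Xist takes part in the genotype difference was not tested beyond these values.

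Lamb1, the β1 chain of most widespread laminins (chr12:31265234-31329644, plus strand), was the member that rose. With TGFβ1 it was at 528, 474, 608, 485 and 534 CPM in WT and at 547, 705, 963, 850 and 772 CPM in WWP2-/- cells. The lowest WWP2-/- library, replicate 1, which has Xist and little Acta2, fell inside the WT range, and the other 4 lay above it. The level was 1.46-fold higher (log2 fold change 0.55, SE 0.15, adjusted p = 0.0390 by edgeR; exact permutation p = 0.0159). With Xist as a yes or no term the log2 fold change was 0.30 (adjusted p = 0.159 by edgeR), so the call was lost. It was also lost when any of 11 single libraries was left out, namely WWP2-/- replicate 1, WT replicates 1 and 5, WWP2-/- replicates 2, 3, 4 and 5 with TGFβ1, or WT replicates 1, 2, 4 and 5 with TGFβ1, with log2 fold changes over all 20 omissions between 0.44 and 0.64.

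Lamc1 encodes the γ1 chain that most laminin trimers share (chr1:153218922-153332786, minus strand). With TGFβ1, WT libraries held 458, 537, 231, 413 and 570 CPM. The WWP2-/- libraries held 158, 231, 338, 151 and 175 CPM. The groups overlapped through WT replicate 3 and WWP2-/- replicates 2 and 3, and all 3 of these libraries lack Xist. The level was 2.10-fold lower (log2 fold change -1.07, SE 0.31, adjusted p = 0.0472 by edgeR; exact permutation p = 0.0238). The 4 WWP2-/- libraries without Xist ranged from 151 to 338 CPM around the single WT library of that kind at 231 CPM. With Xist as a yes or no term the log2 fold change was -0.91 (adjusted p = 0.182 by edgeR). The call stood close to the threshold and was kept in 5 of 20 fits that left out a library, those without WWP2-/- replicate 3 or 5, WT replicate 4, or replicate 3 of either genotype with TGFβ1. Over the 20 omissions the adjusted p of Lamc1 ran from 0.0139 to 0.119 and its log2 fold change from -1.32 to -0.97.

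Nid2, the less abundant nidogen (chr14:19751265-19811787, plus strand), had the largest fold change among the called members. With TGFβ1 it was at 110, 143, 7.68, 129 and 162 CPM in WT. In WWP2-/- cells with TGFβ1 it was at 6.28, 8.21, 2.54, 10.5 and 13.2 CPM. All WT libraries but the one lacking Xist were above 100 CPM, and that library sat inside the WWP2-/- range. The level was 13.5-fold lower (log2 fold change -3.76, SE 0.73, adjusted p = 0.0103 by edgeR; exact permutation p = 0.0317). Among libraries lacking Xist, WWP2-/- cells held 2.54 to 13.2 CPM and the WT library 7.68 CPM. With Xist as a yes or no term the log2 fold change was -3.10 and the adjusted p was 0.0981 by edgeR. Nid2 shares 437 exon bases with the protein-coding gene Rtraf on the opposite strand, and the strand setting of the counting is not given in the sources used here, so reads in that stretch are uncertain.

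Nid1, the main nidogen (chr13:13437551-13512269, plus strand), did not pass in this comparison. Its levels with TGFβ1 were 1489, 1855, 748, 1278 and 1729 CPM in WT and 3535, 1444, 1220, 347 and 389 CPM in WWP2-/- cells. The WWP2-/- libraries spread over 10.2-fold, with the highest value in the replicate that had little Acta2. The log2 fold change was -0.03 (SE 0.57, 95% interval -1.22 to 1.15, adjusted p = 0.983 by edgeR), and without that library it was -0.74 (adjusted p = 0.382 by edgeR). Nid1 shares 143 exon bases with the antisense gene Gm48682.

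None of the 4 α chains passed with TGFβ1 by edgeR. Lama2 encodes the chain of muscle, nerve and interstitial laminin. With TGFβ1 it stood at 62.3, 79.9, 7.14, 108 and 86.9 CPM in WT and at 7.39, 6.30, 29.9, 4.35 and 4.19 CPM in WWP2-/- cells. Its log2 fold change of -2.73 (SE 0.80) had an adjusted p of 0.0512 by edgeR, just above the threshold. DESeq2's Wald test called Lama2 (log2 fold change -2.71, adjusted p = 0.00502), and so did edgeR with a filter of at least 10 counts in every library (adjusted p = 0.0480). The WT library at 7.14 CPM and the WWP2-/- library at 29.9 CPM, both lacking Xist, made the groups overlap. The log2 fold change of Lama2 was -3.02 (adjusted p = 0.0161 by edgeR) without the former and -3.65 (adjusted p = 0.0251 by edgeR) without the latter. Lama2 was also called without WT replicate 4 (adjusted p = 0.0141 by edgeR) or WWP2-/- replicate 3 (adjusted p = 0.0470 by edgeR), both untreated. Over all genes, these omissions called 2702, 1220, 1840 and 1667 in the order named, against 1238 with all libraries. Lama2 shares 631 exon bases with the antisense gene Gm48084.

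Lama4, the chain of vascular and mesenchymal laminin, was at 60.0, 91.9, 2.63, 56.2 and 85.1 CPM in WT with TGFβ1 and at 35.2, 2.05, 0.202, 8.41 and 6.65 CPM in WWP2-/- cells with TGFβ1. The WWP2-/- library at 35.2 CPM is the replicate with little Acta2, and the WT library at 2.63 CPM is the replicate lacking Xist. The log2 fold change was -2.49 (SE 1.20, adjusted p = 0.205 by edgeR). Leaving out both WWP2-/- libraries with little Acta2 gave -3.78 (adjusted p = 0.0322 by edgeR), whereas with Xist as a yes or no term the log2 fold change was -0.28 (adjusted p = 0.887 by edgeR). The omission called 3454 of all genes, against 1238 with all libraries. It left no WWP2-/- library with Xist among those given TGFβ1. Lama1 had a log2 fold change of -1.48 (SE 0.61, adjusted p = 0.145 by edgeR) between means of 2.62 ± 1.503 CPM in WWP2-/- and 7.29 ± 4.13 CPM in WT (SD, n = 5). Lama5, the α chain of most adult basement membranes, was at 506, 378, 521, 248 and 493 CPM in WT and at 50.6, 385, 468, 260 and 341 CPM in WWP2-/- cells with TGFβ1. Its log2 fold change was -0.51 (SE 0.52, adjusted p = 0.581 by edgeR), and the lowest value again belonged to the library with little Acta2.

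**Figure D2:**
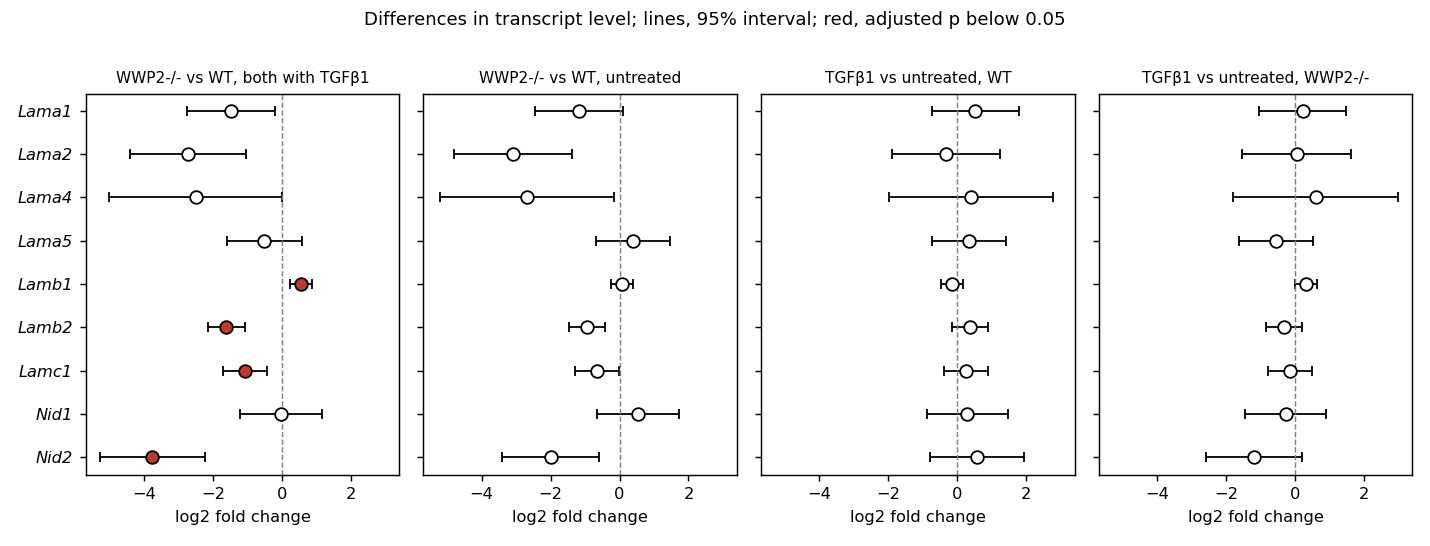
Log2 fold change of each transcript (horizontal axis) in the 4 comparisons, with the 95% interval as a line and red points for an adjusted p below 0.05 by edgeR. With TGFβ1, Lamb1 (0.55), Lamb2 (-1.61), Lamc1 (-1.07) and Nid2 (-3.76) passed, and no point passed in the other comparisons.

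In untreated cells, 0 of the 9 genes passed by edgeR, against 0.725% of all genes tested. An unadjusted p below 0.05 by edgeR was held by 5 of the 9 and by 14.9% of all genes tested. DESeq2's Wald test called 3, Lama2, Lamb2 and Nid2, against 747 of all 20407 genes tested. No member was free of overlap between the groups, against 1.29% of all genes that were lower in WWP2-/- cells without overlap. Lama2 was at 104, 76.0, 112, 3.09 and 137 CPM in WT and at 10.2, 4.22, 5.76, 13.8 and 16.3 CPM in WWP2-/- cells. All WT libraries but replicate 4 were above all 5 WWP2-/- libraries, and replicate 4, which lacks Xist, was below all of them. The log2 fold change of Lama2 was -3.10 (SE 0.82, adjusted p = 0.0882 by edgeR), and without WT replicate 4 it was -3.41 (adjusted p = 0.00861 by edgeR). Lamb2 was at 511, 478, 608, 187 and 620 CPM in WT and at 245, 209, 248, 266 and 287 CPM in WWP2-/- cells. WT replicate 4 was again below all WWP2-/- libraries and the other 4 WT libraries above them. The log2 fold change of Lamb2 was -0.94 (SE 0.25, adjusted p = 0.0937 by edgeR), and without WT replicate 4 it was -1.14 (adjusted p = 0.00211 by edgeR). The fit without WT replicate 4 called 744 of all genes tested, against 148 with it.

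Nid2 in untreated cells was at 109, 85.7, 29.4, 12.5 and 134 CPM in WT and at 18.0, 13.7, 7.25, 23.7 and 29.9 CPM in WWP2-/- cells, so the groups overlapped through WT replicates 3 and 4. Its log2 fold change was -2.003 (SE 0.67, adjusted p = 0.185 by edgeR). Without both WT libraries lacking Xist, Lama2 (log2 fold change -3.46), Lamb2 (-1.19) and Nid2 (-2.32) passed in untreated cells, against 1103 of all 20407 genes tested. Among untreated libraries lacking Xist the order was the opposite for these genes: WT replicate 4 held 3.09 CPM of Lama2 against 4.22 to 16.3 CPM in 3 WWP2-/- libraries, 187 CPM of Lamb2 against 209 to 287 CPM, and 12.5 CPM of Nid2 against 13.7 to 29.9 CPM. That side of the comparison rests on a single WT library. Lamc1 had a log2 fold change of -0.66 (SE 0.31) and Lama4 of -2.69 (SE 1.21), with adjusted p of 0.324 and 0.313 by edgeR. Lama1 was at -1.17 (SE 0.61), Lama5 at 0.39 (SE 0.51), Lamb1 at 0.07 (SE 0.15) and Nid1 at 0.53 (SE 0.57) on the log2 scale.

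Treatment with TGFβ1 called 0 of the 9 genes in either genotype by edgeR, against 0.0% of all genes tested in both. In WT cells 0 members and 1397 of all genes had an unadjusted p below 0.05, and DESeq2's Wald test called 27 genes, 0 of them members. In WWP2-/- cells 1 member, Lamb1, and 713 of all genes had an unadjusted p below 0.05, and DESeq2's Wald test called 44 genes, 0 of them members. The log2 fold changes of the members on treatment ran from -0.33 (Lama2) to 0.57 (Nid2) in WT and from -1.18 (Nid2) to 0.60 (Lama4) in WWP2-/- cells. Lamb1 had a log2 fold change of 0.33 (SE 0.15, 95% interval 0.01 to 0.64) in WWP2-/- cells and of -0.15 (SE 0.15, 95% interval -0.47 to 0.16) in WT. The difference between these responses, the interaction of genotype and treatment, was 0.48 (SE 0.21, adjusted p = 0.661 by edgeR). For Nid2 the interaction was -1.76 (SE 0.93, adjusted p = 0.761 by edgeR). No member passed the interaction, against 0.0% of all genes. There, 1 member and 1424 of all genes had an unadjusted p below 0.05, and DESeq2's Wald test called 10 genes, 0 of them members. So a larger genotype difference with TGFβ1 than without it was not shown for any of the 9.

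The make-up of the chains in each library was taken from CPM per kilobase. Lamb1 formed 44.3 ± 15.8% of the β chain transcripts in WT, 35.4 ± 9.58% in WT with TGFβ1, 59.9 ± 3.24% in WWP2-/- and 69.6 ± 6.18% in WWP2-/- with TGFβ1 (mean ± SD, n = 5). With TGFβ1 the Lamb1 share was 34.5, 29.6, 52.2, 30.3 and 30.6% in the WT replicates and 60.5, 66.6, 72.9, 76.5 and 71.4% in the WWP2-/- replicates. The groups did not overlap, and the highest WT share belonged to the library lacking Xist. With the longest transcript as the length, the mean Lamb1 share was 54.9% in untreated WT, and the groups with TGFβ1 still did not overlap. Without TGFβ1 the WT shares were 39.5, 40.0, 34.8, 72.1 and 34.9%, so replicate 4 stood above the WWP2-/- range of 55.8 to 64.6%. Lama5 made up from 53.2 to 98.2% of the α chain transcripts of a library. With the longest transcript as the length, its share was 38.7% in WT replicate 3 and 40.1% in WWP2-/- TGFβ1 replicate 1, where Lama4 then formed 52.6%. By exons, the Lama5 share was at least 94.4% in 8 of 10 WWP2-/- libraries and in both WT libraries lacking Xist, and at most 82.0% in the other 8 WT libraries. The remaining WWP2-/- libraries, those with little Acta2, had 66.3 and 56.6% Lama5 by exons, with 28.6 and 37.1% Lama4. Nid1 transcripts outnumbered Nid2 in every library. The ratio of Nid1 to Nid2 per kilobase had a median of 9.66 in both WT groups, of 41.3 in WWP2-/- and of 131 in WWP2-/- with TGFβ1, and ranged from 7.38 to 419 over the 20 libraries.

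**Figure D3:**
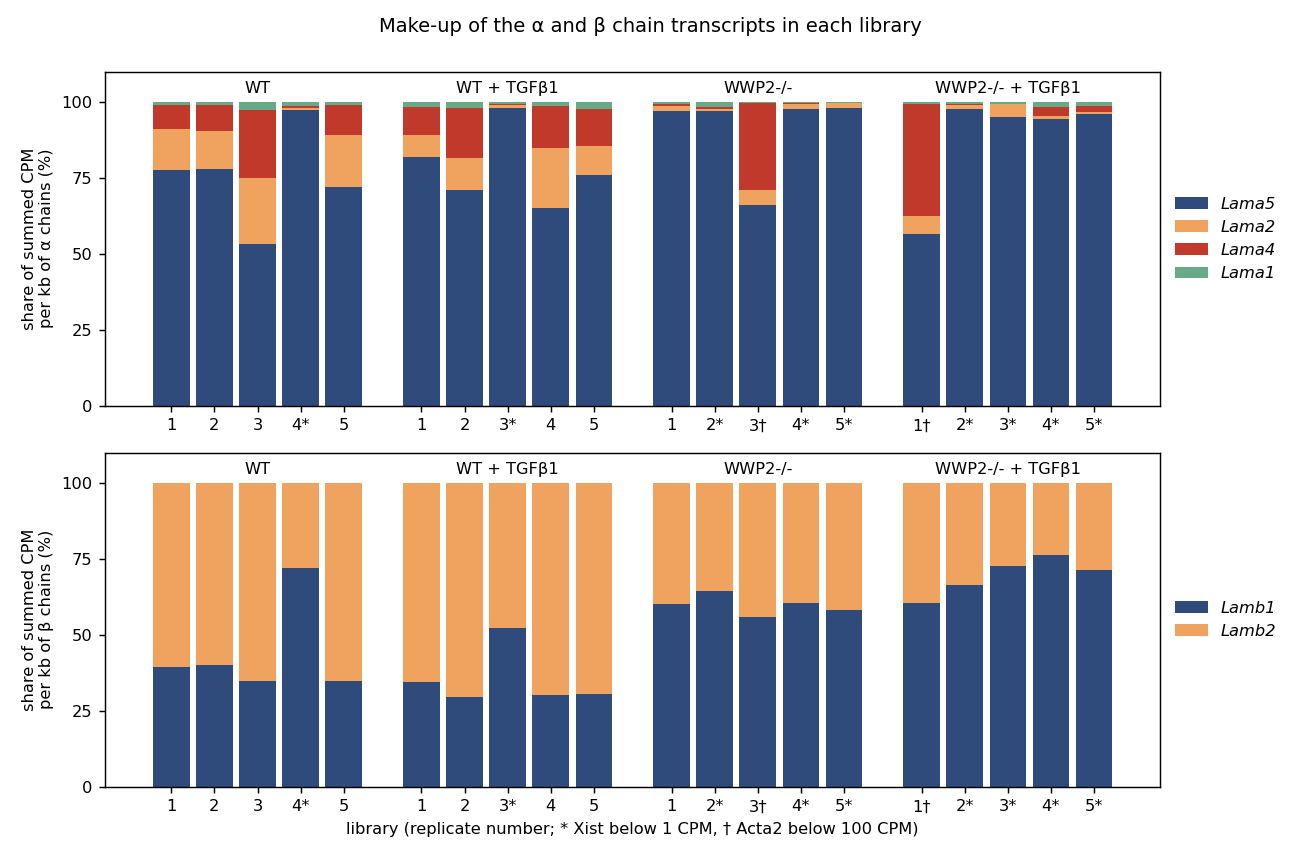
Share (%) of each α chain (upper panel) and β chain (lower panel) in the summed CPM per kilobase, 1 bar per library, grouped by condition. Lamb1 forms 60.5 to 76.5% of the β chains in WWP2-/- cells with TGFβ1 and 29.6 to 52.2% in WT cells with TGFβ1, and Lama4 is visible among WWP2-/- libraries mainly in those marked for low Acta2.

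Lamc1 was compared with the other 8 members across the 20 libraries, since γ1 pairs with the other chains. With group means removed, log2 levels of Lamc1 went with those of Lama2 (Pearson's r = 0.89, Spearman's rho = 0.84), Lamb2 (r = 0.81, rho = 0.78) and Nid2 (r = 0.60, rho = 0.54). The Benjamini-Hochberg adjusted permutation p over the 8 relations was 0.0004 for Lama2, 0.0004 for Lamb2 and 0.0475 for Nid2 (rho 0.00032, 0.00032 and 0.0508). The remaining 5 had an adjusted p of at least 0.124 by r and 0.0871 by rho. Leaving out WWP2-/- replicate 3 and WWP2-/- TGFβ1 replicate 4, the libraries farthest from the median of Lamc1, gave r = 0.90, 0.84 and 0.62. They were chosen on levels before group means were removed. WT replicate 4 (178 CPM of Lamc1, against 330 to 514 CPM in the rest of its group) stayed in. So did WT TGFβ1 replicate 3 (231 CPM, against 413 to 570 CPM). The omission therefore could not show whether the relations rest on these WT libraries. Because Xist separates the libraries, the relations were also computed within each class on the levels themselves, as a description with no test, since these levels include the genotype difference. Between Lamc1 and Lama2, r was 0.92 in the 11 libraries with Xist (rho 0.60) and 0.93 in the 9 without (rho 0.80). Between Lamc1 and Lamb2, r was 0.95 and 0.65 (rho 0.90 and 0.75). Between Lamc1 and Nid2, r was 0.95 in libraries with Xist and -0.10 in those without (rho 0.95 and 0.07). For 3 other members the sign of r on the levels differed between the classes: it was 0.96 with Xist and -0.68 without for Lama1, 0.61 and -0.93 for Lama4, and -0.67 and 0.90 for Nid1.

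Within each class, group means were then removed and every arrangement within groups was tested, leaving out groups of 1 library. No relation passed when adjusted over the 16, and the lowest adjusted p was 0.0833. In the 10 libraries with Xist, r was 0.64 for Lama2 (exact permutation p = 0.165), 0.49 for Lamb2 (exact permutation p = 0.161) and 0.60 for Nid2 (exact permutation p = 0.216). In the 7 without Xist, r was 0.94 for Lama2 (exact permutation p = 0.0139), 0.92 for Lamb2 (exact permutation p = 0.0208) and -0.40 for Nid2 (exact permutation p = 0.431). Over the 16 relations, the lowest adjusted p by rho was 0.111, and leaving out the 2 libraries farthest from the median of Lamc1 gave r = 0.37 and 0.89 for Lama2, 0.41 and 0.93 for Lamb2, and 0.34 and -0.43 for Nid2. The relations called over all 20 libraries were not called within the classes of Xist. The 7 libraries without Xist allow only 144 arrangements, which limits how low a p adjusted over the 16 relations can go. The missing calls therefore do not decide whether the relations hold within the classes.

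Across the 20 libraries, genes whose log2 levels were most like Lamc1 were Cyfip1 (r = 0.98), Snrk (0.98), Arhgef10 (0.98), Tacc1 (0.97) and Olfr1033 (0.97). For Lama2 they were Sptbn1 (r = 0.99), the fibril-associated collagen Col12a1 (0.98), Prdm6 (0.97), Itsn1 (0.97) and Cygb (0.97). For Nid1 they were Pi4ka (r = 0.95), Foxn2 (0.94), Nckap1 (0.93), Crk (0.93) and Slc39a6 (0.92). These values are over 13518 genes with a mean of at least 1 CPM, and the points share library, depth and genotype.

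The genotype differences were examined under 32 alternatives for each comparison, of which 20 left out a library, also from groups not compared. Another changed only the threshold, to 0.01. The alternatives share most of their data and are not independent checks. With TGFβ1, Lamb2 was called in 32 of 32 (log2 fold change -1.80 to -1.20) and Nid2 in 29 (-4.06 to -3.03). Nid2 was not called with Xist as a covariate, with Xist as a yes or no term, or at the threshold of 0.01. Lamb1 was called in 15, Lamc1 in 10, Lama2 in 8, Lama4 in 2 and Lama1 in 1. Lama5 and Nid1 were called in 0, and the sign of Nid1 changed in 6. In untreated cells, Lama2 and Lamb2 were called in 5 of 32 each, Nid2 in 3 and Lama4 in 1. Without the 4 libraries that stand apart (both WT libraries lacking Xist and both WWP2-/- libraries with little Acta2), 7 of the 9 genes passed with TGFβ1 and 4 in untreated cells, and so did 6506 and 2872 of all genes. In that fit, every WT library with TGFβ1 had Xist and every WWP2-/- library with TGFβ1 lacked it. Genotype and Xist therefore cannot be told apart there.

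**Figure D4:**
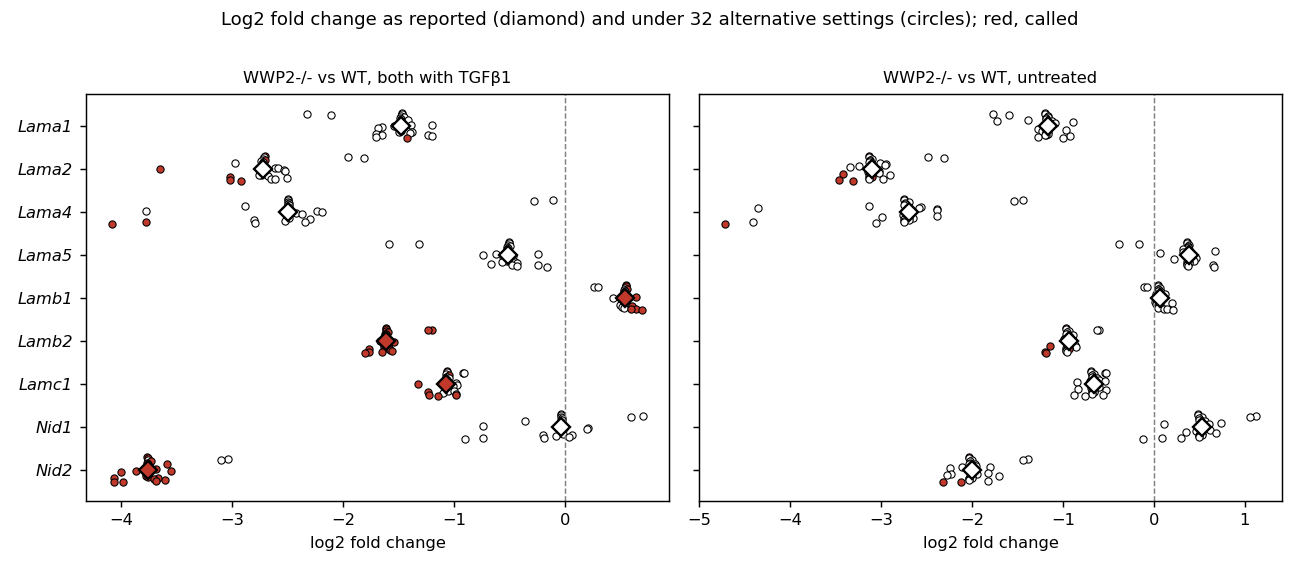
Log2 fold change (horizontal axis) of WWP2-/- against WT for each transcript, with TGFβ1 on the left and untreated on the right; diamonds are the reported values, circles the 32 alternatives, and red marks an adjusted p under the threshold. The Lamb2 symbols with TGFβ1 are all red between -1.80 and -1.20, while those of Lama2, Lamb1 and Lamc1 are mixed.

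Genes that act with the laminins were counted in the same fits. Of 14 receptors and partners at the cell surface, 2 passed with TGFβ1, both lower in WWP2-/- cells, against 6.07% of all genes tested, and the median log2 fold change of the list was -0.23. These were the sarcoglycans of the dystroglycan complex, Sgcd (4.25 ± 0.661 CPM in WT and 0.966 ± 0.416 CPM in WWP2-/-, log2 fold change -2.14, adjusted p = 0.0149 by edgeR) and Sgce (102 ± 27.0 and 47.7 ± 10.6 CPM, log2 fold change -1.10, adjusted p = 0.0289 by edgeR). The laminin-binding integrin chains did not pass: Itga3 had a log2 fold change of 1.38 (SE 0.63), Itga6 of 0.91 (SE 0.34), Itga7 of -1.11 (SE 0.36) and Itgb1 of 0.54 (SE 0.36). Dag1, which encodes dystroglycan, was at -0.55 (SE 0.45).

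Of 25 other basement membrane genes, 2 passed, a share near the 6.07% of all genes tested, and the median log2 fold change of the list was -0.36. Both were lower: the fibulin Fbln1, which binds nidogen (53.0 ± 30.4 and 5.42 ± 6.95 CPM, log2 fold change -3.29, adjusted p = 0.0354 by edgeR), and Smoc1 (36.8 ± 15.1 and 9.40 ± 4.99 CPM, log2 fold change -1.97, adjusted p = 0.0301 by edgeR). The type IV collagen chains, the partner network that nidogens bind, did not pass: Col4a1 was at -0.22 (SE 0.36), Col4a2 at -0.56 (SE 0.38), Col4a3 at 2.09 (SE 1.40), Col4a4 at 1.97 (SE 1.18) and Col4a5 at -1.11 (SE 0.39) on the log2 scale. Of the laminin chains outside the 9, Lama3, Lamb3 and Lamc3 did not pass, and their means with TGFβ1 were between 0.185 and 3.34 CPM. In untreated cells 0 of the receptors and partners, of the other basement membrane genes and of these 3 chains passed.

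On treatment, 0 of 8 genes known to respond to TGFβ1 passed in either genotype. Between genotypes with TGFβ1, 1 of these 8 passed as higher in WWP2-/- cells and 2 as lower, against 6.07% of all genes tested. There, 3 of the 8 had a negative log2 fold change, and the median was 0.25.

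Markers of cell types that cultures from kidney may hold differed in direction between lists with TGFβ1. Of 10 macrophage markers, 10 had a higher fitted level in WWP2-/- cells (median log2 fold change 2.52), and of 9 tubular markers, 9 did (median 2.02), with 0 calls in either list. Of 10 fibroblast markers, 8 were lower (median -2.12), and 2 passed, Col1a2 (-2.63) and Col1a1 (-1.98). With TGFβ1 the macrophage markers summed to 72.0 to 468 CPM in WT and 84.8 to 3757 CPM in WWP2-/- libraries. The tubular markers summed to 35.1 to 215 CPM and 17.0 to 611 CPM, and the fibroblast markers to 26309 to 36404 CPM and 8788 to 56988 CPM. The ranges of the sums overlapped between genotypes in these 3 lists.

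Of 10 endothelial markers with TGFβ1, 3 had a negative log2 fold change (median 0.70), and 2 of these passed, Tek (-2.87) and Kdr (-1.76). Of 6 podocyte markers, 3 were negative (median -0.054), and Wt1 (-1.22) passed. The mural list (3 of 8 negative, median 0.25) and the Schwann cell list (1 of 4 negative, median 0.41) had 0 calls. These calls stand against 6.07% of all genes tested. In untreated cells 1 marker passed, Tek (-3.32). There the macrophage markers were negative in 9 of 10 (median -0.84), the fibroblast markers in 8 of 10 (median -1.39) and the tubular markers in 4 of 9 (median 0.27). Whether cell make-up takes part in the laminin differences was not tested.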

How the data were processed

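RNA was poly-A selected and sequenced as paired reads. Per the paper's methods, the authors aligned reads to GRCm38 (mm10) with STAR and counted them per gene over exons with featureCounts. The deposited table holds raw counts, whole numbers per gene, with no normalization. Each of its columns was matched to a sample by the labels (0 columns unmatched). A gene was tested if 5 or more libraries each held 5 or more counts of it. TMM scaling and edgeR 4.0.16 quasi-likelihood tests (R 4.3.3) were run on all 20 libraries in 4 groups with no covariate, and p-values were adjusted by Benjamini-Hochberg over 20407 genes, with a threshold of 0.05. DESeq2 1.42.0 was an alternative. The fitting was tested on independent counts simulated from the mean and dispersion of each gene. These held none of the Xist or Acta2 differences between libraries, so they check the code and not the calls reported here. SEs were taken from the F statistic. Permutation tests used scipy 1.17.1, over all 252 arrangements for 5 against 5 libraries and, for correlations, 100000 resamples within groups over all libraries and every arrangement within groups inside each class of Xist. Library totals were 47520759 to 73063697 counts, so 3 counts in the smallest correspond to 0.0631 CPM; every member had at least 10 counts in every library. Exon lengths and coordinates came from GENCODE M21 (GRCm38), and promoter sequences from RefSeq (GRCm38.p6). An overlapping gene on either strand could share reads, since the strand setting is not given in the sources used here. All 9 members were described in every comparison, from the other lists up to 4 genes per comparison that passed with a mean of at least 1 CPM, plus integrins and type IV collagen chains, and for Lamc1, Lama2 and Nid1 the 5 most correlated genes. Members and lists were chosen with earlier results of these data known. The results of some genes on the lists are not reported here. The relations of Lamc1 within classes of Xist, and the fits without the libraries that stand apart or with Xist as a yes or no term, were added after seeing the data. Alternatives also changed the normalization, filter, samples, block, covariate and threshold.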

Additional observations from a re-analysis of the deposited data

Results flagged for a closer look

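In 36 sets of 5 libraries (9 genes in 4 groups), 11 held a library whose gap to its nearest neighbour exceeded 0.71 of the range of the set on the log2 scale. Chance alone gives this in about 1 in 20 sets of independent, normally distributed values. WT replicate 4 was low in Lama2 (3.09 CPM), Lama4 (2.86 CPM) and Lamb2 (187 CPM) and high in Lamb1 (787 CPM). WT TGFβ1 replicate 3 was low in Lama2 (7.14 CPM), Lama4 (2.63 CPM), Lamb2 (341 CPM) and Nid2 (7.68 CPM). These 2 libraries lack Xist, and they gave 8 of the 11. WWP2-/- replicate 3 and WWP2-/- TGFβ1 replicate 1, the libraries with little Acta2, were low in Lama5 (56.9 and 50.6 CPM). WWP2-/- TGFβ1 replicate 3 was high in Lama2 (29.9 CPM). Genes and libraries here are not independent of each other.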

How the results depend on the processing

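With TGFβ1, 4 of the 9 genes were called between genotypes. The number was 5 with DESeq2's Wald test and 5 with at least 10 counts in every library (Lama2 added in both), 5 without the 2 WT libraries lacking Xist, 5 without the 2 WWP2-/- libraries with the lowest Acta2, 3 with DESeq2's size factors, 2 with no filter, 2 with only the compared groups in the fit, 2 with the replicate block, 1 with Xist as a covariate, 1 with Xist as a yes or no term (Lamb2 in both), 1 at an adjusted p of 0.01 and 7 without the 4 libraries that stand apart, and it ran from 2 to 5 when a library was left out. It was 2 without WWP2-/- replicate 1, WWP2-/- TGFβ1 replicates 2, 4 or 5, WT replicates 1 or 5, or WT TGFβ1 replicates 1, 2, 4 or 5. In untreated cells 0 were called. The number was 3 with DESeq2's Wald test, 3 without the 2 WT libraries lacking Xist, 4 without the 4 libraries, and from 0 to 2 when a library was left out, being 2 without WT replicate 4 or WT TGFβ1 replicate 3. Over all genes, these last fits called 744 and 286 in untreated cells. With TGFβ1, the calls over all genes ran from 464 to 2702 when a library was left out. For treatment and the interaction the number of members called was 0 under every alternative run. Over all genes, 1238 were called with TGFβ1 and 148 without; DESeq2's Wald test called 2672 and 747, no filter 790 and 113, only the compared groups 569 and 1, the replicate block 670 and 1, Xist as a covariate 544 and 84, Xist as a yes or no term 331 and 21, and an adjusted p of 0.01 left 101 and 1. They were 3454 and 270 without the 2 WWP2-/- libraries with the lowest Acta2, 3314 and 1103 without the 2 WT libraries lacking Xist, and 6506 and 2872 without all 4. These 3 omissions and the yes or no term were chosen after seeing the data. Without all 4, genotype and Xist coincided fully among the libraries with TGFβ1. Replicate numbers did not pair the libraries: same-numbered treated and untreated libraries of a genotype had deviations correlated at -0.52 to 0.30. Some libraries matched at other numbers. WWP2-/- replicate 3 matched TGFβ1 replicate 1 (r = 0.91), and WWP2-/- replicate 2 matched TGFβ1 replicate 5 (0.77). WT replicate 4 matched TGFβ1 replicate 3 (0.73). The best matches of the remaining untreated libraries were at 0.20 to 0.47. Whether matched libraries share a culture or an animal is not in the labels and was not tested. The block fits used the replicate numbers and not these matches. The 0 calls for treatment and the interaction therefore do not cover a pairing by matched libraries. The block ended the calls of Lamb1 (adjusted p = 0.0665) and Lamc1 (0.0861). Some log2 fold changes changed sign, all of them without a call. Nid1 with TGFβ1 was at 0.71 with the Xist covariate and 0.59 with the yes or no term. In untreated cells, Lama5 was at -0.38 and -0.17 and Lamb1 at -0.10 and -0.071 in the same fits, and Nid1 was at -0.12 without the 4 libraries. Lama2 on treatment of WWP2-/- cells was at -0.084 with the replicate block and -0.29 with the block within genotype. Leaving out a library moved Nid1 between genotypes with TGFβ1 from -0.74 to 0.21. On treatment of WWP2-/- cells it moved Lama1 from -0.056 to 0.75, Lama2 from -0.85 to 0.29, Lama4 from -0.67 to 2.27, Lamc1 from -0.38 to 0.039 and Nid1 from -0.96 to 0.15. In the interaction it moved Lama1 from -0.59 to 0.26, Lama2 from -0.52 to 0.69 and Lama4 from -1.05 to 1.86. With the longest transcript as the length, Lamb1 formed 54.9% of the β chains in untreated WT (44.3% by exons), 46.2% in WT with TGFβ1, 70.3% in WWP2-/- and 78.3% in WWP2-/- with TGFβ1. In these changes of calls and signs the cause was not tested.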

Other observations

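WWP2-/- replicate 3 and WWP2-/- TGFβ1 replicate 1 deviated from the mean of all libraries more alike than any other pair (r = 0.91 across genes, which are not independent), although their counts differed at 24198 genes. They held the highest Nid1 of all 20 libraries (3365 and 3535 CPM) and the lowest Lama5 (56.9 and 50.6 CPM), Lama1 (0.322 and 0.371 CPM) and summed pericyte and smooth muscle markers. With group means removed, Lama2 and Lamb2 had the highest correlation among the 36 pairs of members (r = 0.94 over 20 libraries) and Lama4 and Lamb1 the lowest (r = -0.83), given as descriptions.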
